A study of Mus musculus with 49 samples.

Results

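Collagen genes are the genes whose symbol in the array annotation begins with Col, a number, the letter a and a second number, as in Col1a1, and whose probe set carries that single symbol. This rule used names and no measured value. It found 42 collagen genes with 82 probe sets among 18194 genes. By textbook class, 11 of them are fibrillar, 8 are basement membrane collagens and 23 are other collagens. All 42 matched a RefSeq gene of the same symbol by gene ID. Whole liver of male C57BL6/N mice was profiled after acetaminophen (APAP, paracetamol) was injected intraperitoneally at 300 mg/kg in 1 dose, an overdose that injures hepatocytes around the central veins. Mice were starved overnight, dosed in warm saline buffer and fed freely afterwards. Neither fasting nor vehicle is stated for the control group, which the labels describe as given no treatment. The 49 Affymetrix Mouse Genome 430 2.0 arrays form 10 groups, each of 5 arrays except for 4 at 6 h: a control group and livers taken at 1 h, at 6 h, at 12 h, at 1 d, at 2 d, at 4 d, at 6 d, at 8 d and at 16 d after dosing. No age is labelled, and only the sample labels name 16 d.

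Collagens are trimers of chains wound into a triple helix. Fibrillar collagens (types I, II, III, V, XI, XXIV and XXVII) make or seed the banded fibrils of connective tissue, type IV forms the network of basement membranes, and types XV and XVIII sit at their edges. The remaining types link fibrils, form beaded filaments such as type VI, or span membranes. In liver, activated stellate cells (myofibroblasts) and portal fibroblasts are the known main source of fibrillar collagen, endothelial and stellate cells make type IV, and hepatocytes are a known source of type XVIII, whose C-terminal fragment is endostatin.

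The upstream sequences of collagen genes that rose are printed first, because the members that rose at 2 d come from all 3 classes and their promoters can be set side by side. The RefSeq table (GRCm38.p6) held an upstream sequence of 33 of the 42 collagen genes, and of 8 of the 11 that rose at 2 d. The lines below give the 250 bases before the annotated start of the fibrillar chains Col1a2, Col3a1 and Col5a1 and of the type VI chain Col6a3, 5′ to 3′ on the strand of the gene. Capitals mark the motifs searched on both strands. CCAAT is the box bound by the factor NF-Y. TATAAA is the core of a TATA box. GGGCGG is a GC box, bound by Sp1. The letters TGANTCA make an AP-1 site.
Col1a2, chr6:4505368-4505617, plus strand: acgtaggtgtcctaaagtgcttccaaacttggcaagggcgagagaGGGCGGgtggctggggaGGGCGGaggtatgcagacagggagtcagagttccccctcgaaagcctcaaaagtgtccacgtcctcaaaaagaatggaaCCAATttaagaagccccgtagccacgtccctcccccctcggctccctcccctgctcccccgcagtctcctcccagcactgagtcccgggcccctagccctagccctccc
Col3a1, chr1:45311288-45311537, plus strand: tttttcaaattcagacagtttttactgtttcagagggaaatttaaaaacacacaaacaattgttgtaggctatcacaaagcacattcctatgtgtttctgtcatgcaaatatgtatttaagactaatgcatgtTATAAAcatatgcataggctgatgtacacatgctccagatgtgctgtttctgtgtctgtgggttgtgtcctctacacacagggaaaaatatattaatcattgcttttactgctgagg
Col5a1, chr2:27886175-27886424, plus strand: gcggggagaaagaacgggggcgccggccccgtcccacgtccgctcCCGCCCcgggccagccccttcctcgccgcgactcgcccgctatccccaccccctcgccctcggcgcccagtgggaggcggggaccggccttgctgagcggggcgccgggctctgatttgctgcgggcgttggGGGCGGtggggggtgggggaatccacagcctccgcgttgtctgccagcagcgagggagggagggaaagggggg
Col6a3, chr1:90843972-90844221, minus strand: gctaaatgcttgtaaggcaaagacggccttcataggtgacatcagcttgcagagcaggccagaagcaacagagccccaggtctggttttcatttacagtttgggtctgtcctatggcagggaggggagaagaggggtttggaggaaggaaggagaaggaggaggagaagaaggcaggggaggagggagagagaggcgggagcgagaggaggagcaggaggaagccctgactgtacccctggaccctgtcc
Col1a2 holds a CCAAT box whose first base lies 109 bases before the start and GC boxes at 205 and 188 bases before it. Col3a1 holds 1 TATAAA, at 117 bases before its start, and no CG pair, whereas Col5a1 holds 28 CG pairs and GC boxes at 205 and 73. None of the 4 motifs is in the Col6a3 window.

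Col4a1 and Col4a2 are read in opposite directions from start sites 21 bases apart, so their upstream stretches overlap the other gene. Only the 30 bases around the CCAAT box of each are printed, again on the strand of the gene, with the box in capitals. In Col4a1 the box reads CCAAT on the opposite strand.
Col4a1, chr8:11312954-11312983, minus strand: tgcttgcccgggATTGGcgagccaaggggc
Col4a2, chr8:11312761-11312790, plus strand: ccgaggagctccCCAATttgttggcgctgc
Among the 8 collagen genes with a sequence that rose at 2 d, CCAAT was found in 3 (Col1a2, Col4a1 and Col4a2), GGGCGG in 4 (Col1a2, Col4a2, Col5a1 and Col6a2), TATAAA in Col3a1 and TGANTCA in Col6a1. Over all 32851 promoters of the table, the same 250 bases held CCAAT in 33.8%, GGGCGG in 32.7%, TATAAA in 12.4% and TGANTCA in 6.75%. These are matches of letters and describe the sequences only.

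The values are log2 expression per probe set and array, with the probe set of the highest mean standing for its gene, so a difference of 1 is a doubling. All 45101 probe sets were held by the 25 arrays of 1 h and 12 h and of 1 d, of 2 d and of 16 d, here called complete arrays. The other 24 held 8137 or 8138, on which 18 collagen genes (7 fibrillar, 2 basement membrane, 9 other) could be followed in all 10 groups. The whole set of 42 was therefore compared with 1 h, itself a dosed group, and the 18 with control. Array means lay between 6.03 and 6.33, no 2 arrays were identical, and 3 arrays (control replicate 3, 1 h replicate 3 and 16 d replicate 4) had a narrower spread of values (SD 2.25 to 2.26) than the other 46 (2.40 to 2.48). The 5 measured hepatocyte markers (Alb, Apoa1, Ttr, Cps1, Tat) averaged 13.3 to 13.7 on the complete arrays, near the top of the scale. In whole liver, more collagen-producing cells and more collagen RNA per cell cannot be told apart.

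Collagen genes rose at different times. The type IV chains Col4a1 and Col4a2 were already higher at 12 h, and the fibrillar chain Col5a2 and Col12a1 were called higher at 1 d, Col12a1 no longer at 2 d. Against 1 h, the fibrillar chains Col3a1, Col1a2, Col1a1 and Col5a1 were first called higher at 2 d. So were the type VI chains Col6a1, Col6a2 and Col6a3, and Col14a1. Col3a1 was the one collagen called against 1 h at 16 d. Other comparisons gave earlier calls for Col5a1 and Col3a1. Col5a1, on another probe set, was higher at 1 d than in control, and Col3a1 was higher at 1 d than at 12 h. Col18a1 was lower at 12 h, 1 d and 2 d. A gene was called where limma's moderated test gave a p under 0.05 after Benjamini-Hochberg adjustment across every gene tested in that contrast, and the error beside a log2 difference is its SE from that fit.

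Of 42 collagen genes, 2 were higher and 4 lower at 12 h than at 1 h, where 8.29% of all genes were higher and 10.3% lower. At 1 d, 4 were higher and 4 lower, against 11.6% and 11.7% of all genes. At 2 d, 11 were higher and 2 lower, and in each of these 13 the 2 d arrays and the 1 h arrays did not overlap. The background at 2 d was 14.8% higher and 13.3% lower, with or without overlap. How many of all genes were called without overlap was not counted. At 16 d, Col3a1 alone was higher and no collagen was lower by limma (background 1.46% and 1.32%). At an unadjusted p under 0.05, 5 were higher and 0 lower at 16 d. The share of all genes at an unadjusted p under 0.05 was not counted, here or for any unadjusted count below. The background shares given are all at the adjusted threshold. The median collagen gene differed from 1 h by −0.09 at 12 h, −0.08 at 1 d, −0.13 at 2 d and 0.02 at 16 d, beside −0.08, −0.07, −0.08 and −0.01 over all genes. At 2 d, then, a minority of members with large rises stood beside a family median below 0.

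The count of lower genes depends on scale. With each array centred on its ribosomal protein genes, the median of all genes shifted by −0.22 at 12 h, −0.34 at 1 d and −0.27 at 2 d. The lower collagen genes then numbered 18, 27 and 24 beside 2, 3 and 11 higher. The shares of all genes called with this centring were not counted, so these counts cannot be set against a background. The 11 rises at 2 d were called under every alternative tried, this one included.

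**Figure D1:**
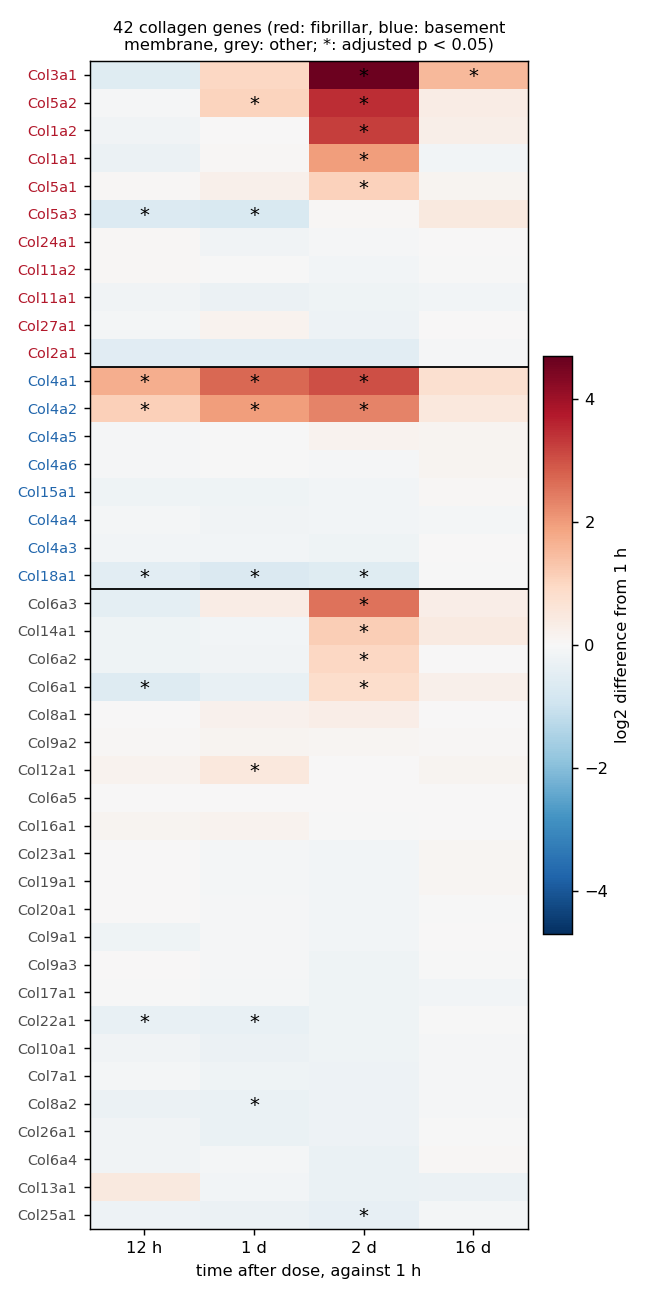
Colour map of the log2 difference from 1 h of the 42 collagen genes (rows, grouped by class) at 12 h, 1 d, 2 d and 16 d (columns), means of 5 arrays a group, with a star where limma's adjusted p was under 0.05. Col4a1 and Col4a2 (higher) and Col18a1 (lower) carry stars at 12 h, 1 d and 2 d. At 2 d, stars also mark 5 fibrillar genes and 4 other collagens as higher and Col25a1 as lower. Some further genes carry stars at 12 h, 1 d or 16 d, and most rows stay near 0.

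Among fibrillar collagens, 5 of 11 were higher at 2 d than at 1 h and 0 lower by limma (background 14.8% and 13.3%). At an unadjusted p under 0.05, 1 was lower (Col2a1), and the class median was 0.06. Col3a1, the single chain of type III collagen, had the largest 2 d rise of the 42. Its values were 6.63, 6.39, 6.09, 6.24 and 7.38 at 1 h, 6.08, 4.79, 6.13, 6.28 and 6.52 at 12 h and 6.07, 7.70, 6.96, 8.96 and 7.81 at 1 d. They were 10.91, 11.32, 10.77, 11.36 and 11.40 at 2 d and 8.22, 8.27, 8.56, 7.10 and 8.23 at 16 d. The 2 d arrays formed a tight high group, while the 1 d arrays spread from the 1 h level almost to 9. The 2 d mean was 24.3-fold that of 1 h (log2 difference 4.60 ± 0.39, adjusted p = 7.67e-09).

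Col1a2 encodes the second chain of type I collagen, the bulk collagen of scar. It read 6.90, 7.02, 7.16, 6.98 and 7.38 at 1 h, 6.69, 6.52, 6.68, 7.47 and 7.32 at 12 h and 6.70, 7.10, 6.85, 7.50 and 7.32 at 1 d. It then read 10.11, 10.52, 9.81, 10.38 and 10.91 at 2 d and 7.33, 7.42, 7.60, 7.19 and 7.34 at 16 d. Every 2 d array stood above all other arrays, and the remaining groups lay close together. The rise from 1 h was 3.26 ± 0.19 (9.58-fold, adjusted p = 3.77e-11), whereas the 1 d difference was 0.01.

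Col1a1, the other chain of type I collagen, read 5.70, 5.19, 6.24, 5.15 and 5.01 at 1 h, 5.37, 5.21, 5.36, 5.13 and 4.84 at 12 h and 5.75, 5.63, 5.43, 5.57 and 5.24 at 1 d. At 2 d it read 7.37, 7.87, 7.21, 7.41 and 7.32 and at 16 d 5.19, 5.06, 5.00, 6.23 and 5.24. The highest arrays of 1 h and of 16 d were 2 of the narrow-spread arrays. Col1a1 rose by 1.98 ± 0.22 at 2 d (3.94-fold, adjusted p = 2.73e-07).

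Type V collagen sits inside type I fibrils and sets their width. Its chain gene Col5a2 read 5.07, 4.78, 5.24, 4.57 and 5.30 at 1 h, 4.80, 4.57, 4.99, 5.50 and 4.88 at 12 h and 5.69, 6.10, 5.33, 7.17 and 5.88 at 1 d, then 8.23, 8.71, 7.99, 8.40 and 8.95 at 2 d and 5.24, 5.24, 5.51, 5.24 and 5.47 at 16 d. Unlike the type I chains, Col5a2 was called at 1 d (1.04 ± 0.25, adjusted p = 0.00297), before its larger rise at 2 d (3.46 ± 0.25, 11-fold, adjusted p = 3.7e-10). Whether the earlier step of Col5a2 differed from that of the type I chains was not tested. Its highest 1 d array, replicate 4, was also the highest of Col3a1.

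Col5a1 read 5.78, 5.20, 6.15, 5.97 and 5.82 at 1 h and 6.71, 6.91, 6.51, 6.77 and 7.37 at 2 d. It rose by 1.07 ± 0.15 (adjusted p = 7.31e-06) with no overlap of the groups. Col5a3, the last of the type V chains, went the other way first, from a mean of 5.94 ± 0.25 (SD, n = 5) at 1 h to 5.28 ± 0.27 at 12 h and 5.22 ± 0.46 at 1 d, and stood at 6.00 ± 0.19 at 2 d. Its falls of 0.66 ± 0.18 at 12 h (adjusted p = 0.0118) and 0.72 ± 0.18 at 1 d (adjusted p = 0.00505) were called although arrays overlapped.

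The other 5 fibrillar genes are the cartilage collagens Col2a1, Col11a1 and Col11a2 and the lesser known Col24a1 and Col27a1. None was called against 1 h at any of the 4 times. Their 2 d differences ran from −0.51 (Col2a1, adjusted p = 0.06) to −0.05 (Col24a1, mean level 2.37 over the complete arrays).

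**Figure D2:**
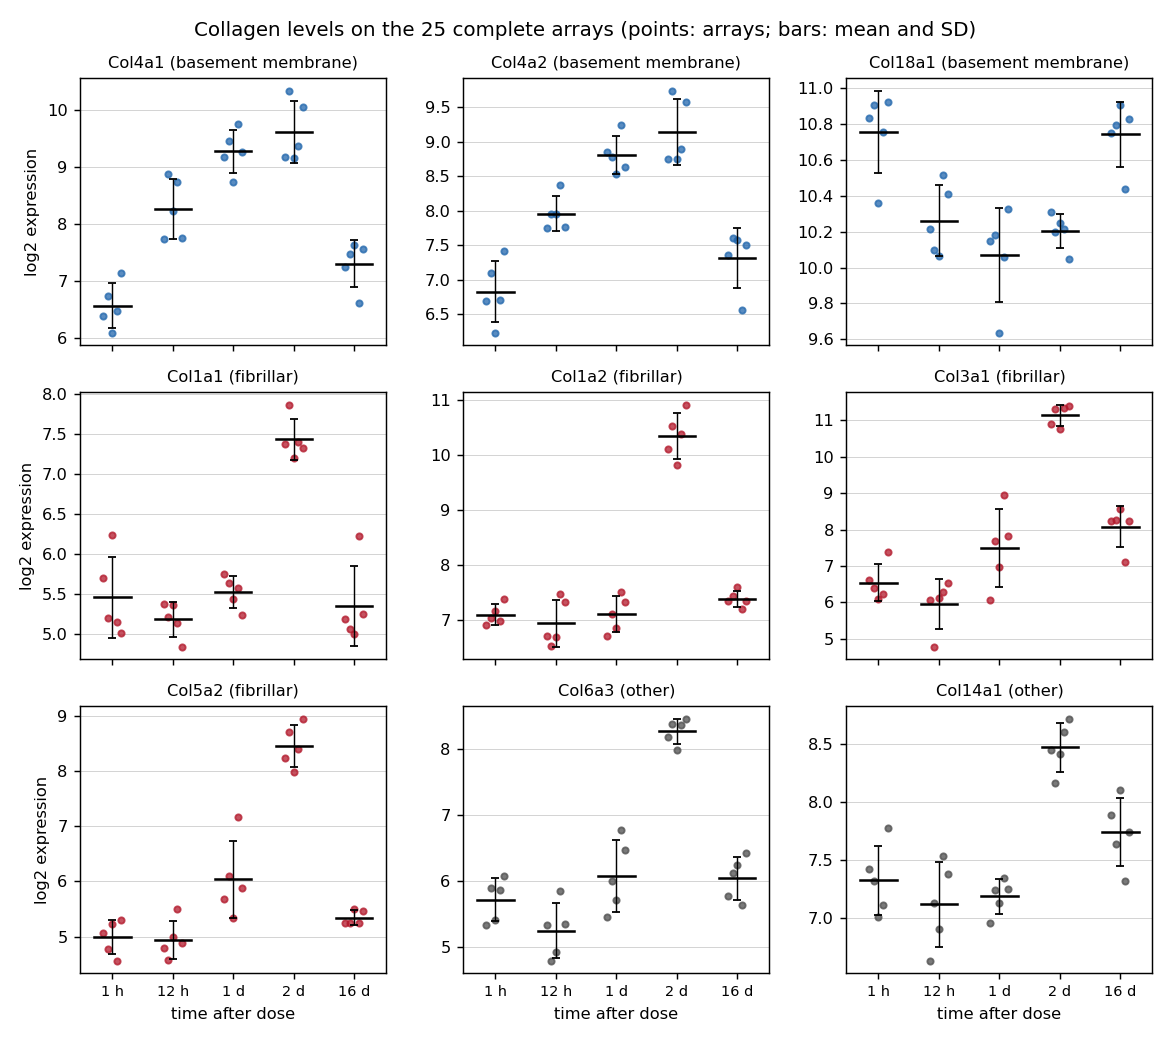
Log2 expression (vertical axis) of 9 collagen genes on every complete array at 1 h, 12 h, 1 d, 2 d and 16 d (horizontal axis). Points are arrays and bars the mean and SD of 5 arrays. Col4a1 and Col4a2 climb from 12 h, the fibrillar genes, Col6a3 and Col14a1 stand apart at 2 d, and Col18a1 is low from 12 h to 2 d.

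Among basement membrane collagens, 2 of 8 were higher and 1 lower at 2 d (background 14.8% and 13.3%), with a class median of −0.09. Col4a1 and Col4a2, the 2 chains of the common type IV trimer, were higher at 12 h, 1 d and 2 d, Col18a1 was lower at the same 3 times, and the other 5 were not called. Col4a1 read 6.39, 6.74, 6.10, 6.48 and 7.15 at 1 h, 7.74, 8.87, 8.22, 8.73 and 7.75 at 12 h and 9.17, 9.46, 8.73, 9.75 and 9.27 at 1 d. It read 9.18, 10.34, 9.15, 9.36 and 10.05 at 2 d and 7.25, 7.48, 7.64, 6.61 and 7.57 at 16 d. No array of 12 h, 1 d or 2 d reached down to the 1 h range.

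Col4a1 was 3.23-fold higher at 12 h (1.69 ± 0.27, adjusted p = 9.68e-05), 6.51-fold at 1 d (adjusted p = 1.26e-07) and 8.26-fold at 2 d (3.05 ± 0.27, adjusted p = 1.27e-08). Col4a2 read 6.69, 7.09, 6.23, 6.70 and 7.42 at 1 h, 7.75, 7.95, 7.95, 8.38 and 7.76 at 12 h and 8.85, 8.78, 8.53, 9.24 and 8.64 at 1 d. It read 8.74, 9.75, 8.75, 8.90 and 9.58 at 2 d and 7.35, 7.61, 7.57, 6.56 and 7.50 at 16 d. Its arrays were likewise above every 1 h array at the 3 times, with differences of 1.13 ± 0.23 (adjusted p = 0.00119), 1.98 ± 0.23 (adjusted p = 1.09e-06) and 2.32 ± 0.23 (adjusted p = 6.95e-08).

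Col18a1, the type XVIII chain, read 10.84, 10.91, 10.36, 10.76 and 10.92 at 1 h, 10.22, 10.10, 10.07, 10.52 and 10.41 at 12 h and 10.15, 10.18, 9.64, 10.06 and 10.33 at 1 d. It read 10.31, 10.20, 10.25, 10.22 and 10.05 at 2 d and 10.75, 10.80, 10.91, 10.44 and 10.83 at 16 d. The lowest 1 h array, replicate 3, is a narrow-spread array, and all 1 d and 2 d arrays lay below it. Col18a1 fell by 0.50 ± 0.13 at 12 h (adjusted p = 0.00812), 0.69 ± 0.13 at 1 d (adjusted p = 0.00032) and 0.55 ± 0.13 at 2 d (adjusted p = 0.0023).

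The probe set of Col18a1 used here may cross-hybridise, as its suffix marks. The unmarked one was also lower, by 1.03 at 12 h, 0.77 at 1 d and 0.70 at 2 d (negative differences, adjusted p = 0.000619, 0.00581 and 0.0101).

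Col15a1, the type XV chain, did not change by the test. It read 4.38, 4.11, 5.05, 4.16 and 4.27 at 1 h, 4.29, 4.12, 4.41, 4.02 and 4.13 at 12 h and 4.32, 4.20, 4.11, 4.33 and 4.06 at 1 d. It read 4.30, 4.23, 3.98, 4.36 and 4.47 at 2 d and 4.41, 4.35, 4.36, 5.01 and 4.13 at 16 d. Apart from the narrow-spread arrays of 1 h and 16 d, at 5.05 and 5.01, the arrays lay between 3.98 and 4.47. Its 2 d difference was −0.13 ± 0.16 (adjusted p = 0.552). The chains Col4a3, Col4a4, Col4a5 and Col4a6, which build the trimers of kidney and other specialised basement membranes, differed by −0.20 to 0.17 at 2 d and were not called.

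Among the 23 other collagens, 4 were higher and 1 lower at 2 d (background 14.8% and 13.3%), and the class median was −0.13. The 4 were the 3 classic chains of type VI collagen, a beaded filament near cell surfaces, and Col14a1, which lies along the surface of fibrils. Col6a3 read 5.34, 5.89, 5.41, 5.86 and 6.08 at 1 h, 5.33, 4.80, 4.92, 5.85 and 5.35 at 12 h and 5.45, 6.00, 5.71, 6.77 and 6.47 at 1 d. It read 8.18, 8.37, 7.98, 8.36 and 8.46 at 2 d and 5.78, 6.12, 6.24, 5.63 and 6.42 at 16 d. Its 2 d arrays stood clear of all others, at 5.87-fold the 1 h level (2.55 ± 0.22, adjusted p = 1.16e-08).

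Col6a1 read 5.12, 5.17, 5.32, 4.89 and 5.55 at 1 h, 4.75, 4.41, 4.07, 4.84 and 4.86 at 12 h and 5.83, 6.24, 5.73, 6.15 and 6.23 at 2 d. It was first lower than at 1 h on every 12 h array (−0.62 ± 0.19, adjusted p = 0.0208) and then higher on every 2 d array (0.83 ± 0.19, adjusted p = 0.00183). The 12 h call was lost with array weights and without 12 h replicate 2 or 3 or 1 h replicate 5 (adjusted p up to 0.0752). Col6a2 read 6.19, 6.31, 6.74, 6.14 and 6.43 at 1 h and 7.11, 7.60, 6.97, 7.36 and 7.61 at 2 d, a rise of 0.97 ± 0.12 (adjusted p = 2.53e-06) without overlap.

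Col14a1 read 7.42, 7.32, 7.00, 7.11 and 7.77 at 1 h, 6.63, 7.13, 6.90, 7.53 and 7.38 at 12 h and 6.96, 7.24, 7.13, 7.34 and 7.25 at 1 d. It read 8.45, 8.17, 8.41, 8.60 and 8.72 at 2 d and 7.88, 7.63, 8.10, 7.32 and 7.74 at 16 d. Only the 2 d arrays all lay above the 1 h range, by 1.14 ± 0.17 on average (2.21-fold, adjusted p = 1.39e-05). The 16 d mean was 0.41 above that of 1 h and not called (adjusted p = 0.269), with 3 of 5 arrays within the 1 h range.

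The remaining calls among other collagens were small. Col25a1, a transmembrane collagen, read 7.14, 7.10, 7.45, 7.00 and 6.94 at 1 h and 6.71, 6.92, 6.79, 6.71 and 6.66 at 2 d, a fall of 0.37 ± 0.12 (adjusted p = 0.0301). This call was lost after quantile normalization and without 1 h replicate 1 or 3 or 2 d replicate 1, 4 or 5 (adjusted p up to 0.0994). Col22a1, a collagen of tissue junctions, read 4.69, 4.71, 4.69, 4.73 and 4.48 at 1 h, 4.54, 4.61, 4.24, 4.03 and 4.20 at 12 h and 4.32, 4.37, 4.32, 4.35 and 4.14 at 1 d. Its falls were 0.33 ± 0.11 at 12 h (adjusted p = 0.0403), with overlap, and 0.36 ± 0.11 at 1 d (adjusted p = 0.0214), without.

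The 12 h fall of Col22a1 was lost under 10 of 21 alternatives, among them leaving out 12 h replicate 3, 4 or 5 or 1 h replicate 1, 2, 3 or 4, and the 1 d fall without 1 d replicate 5 or with the mean of its probe sets. Col8a2 at 1 d (−0.32 ± 0.11, adjusted p = 0.0363) overlapped 1 h, and its call was lost under 10 of 20 alternatives, among them leaving out 1 d replicate 2, 3 or 5 or 1 h replicate 2, 3 or 5. Col12a1, which decorates fibrils, was higher at 1 d by 0.50 ± 0.13 (adjusted p = 0.00707) with overlap, a call lost after quantile normalization, with ribosomal centring or with the 2 groups fitted alone (adjusted p up to 0.32). It was lower again at 2 d than at 1 d on every array (−0.48 ± 0.13, adjusted p = 0.022).

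In all, 25 of the 42 were never called against 1 h, with no difference beyond 0.54 in either direction. The share of all genes never called at these times was not counted. Of the 42, 14 had a mean level under 4.31, the lower quartile of all genes, and 4 under 3.35, their lowest decile, where a change can be understated. Collagen genes lie next to one another as 7 pairs in the annotation. In Col3a1 with Col5a2, Col4a1 with Col4a2 and Col6a1 with Col6a2, both genes were higher at 2 d. In Col9a1 with Col19a1, Col4a3 with Col4a4, Col6a4 with Col6a5 and Col4a5 with Col4a6, neither was called at 12 h, 1 d or 2 d.

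The order of the rises was examined between neighbouring times, which places most fibrillar calls between 1 d and 2 d and the type IV calls before it. From 12 h to 1 d, 2 collagens were higher (Col3a1 and Col5a2, both with overlapping arrays) and none lower by limma (background 1.02% and 0.747%), and at an unadjusted p under 0.05 these counts were 6 and 1. From 1 d to 2 d, 10 were higher (6 of 11 fibrillar, 0 of 8 basement membrane and 4 of 23 others) and 1 was lower (background 6.39% and 2.09%). The fibrillar class median over this step was 0.78, beside −0.01 over all genes. Col4a1 and Col4a2 differed between 1 d and 2 d by 0.34 ± 0.27 (adjusted p = 0.576) and 0.34 ± 0.23 (adjusted p = 0.496), within the spread of the arrays.

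The difference between both steps was itself tested, in a contrast chosen after the data were seen: the change from 1 d to 2 d minus the change from 1 h to 1 d. Both steps share the 1 d arrays, so a low 1 d mean makes the earlier step smaller and the later step larger. For Col1a2 the later step exceeded the earlier by 3.25 ± 0.34 (adjusted p = 6.86e-07), for Col3a1 by 2.69 ± 0.68 (adjusted p = 0.00882), for Col1a1 by 1.84 ± 0.38 (adjusted p = 0.00152) and for Col5a2 by 1.38 ± 0.43 (adjusted p = 0.0328). For Col5a1 the steps were not called different (0.59 ± 0.26, adjusted p = 0.145). For Col4a1 the difference was −2.36 ± 0.47 (adjusted p = 0.00118), so the earlier step was the larger, as for Col4a2 (−1.64 ± 0.40, adjusted p = 0.00681). For Col12a1 the difference was −0.98 ± 0.23 (adjusted p = 0.00465), from steps of 0.50 and −0.48 in opposite directions.

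The difference was also called positive for Col6a1, Col6a2, Col6a3, Col14a1, Col5a3 and Col18a1, from 0.82 (Col18a1) to 1.83 (Col6a3). In 5 of these 6 the earlier step was negative, from −0.72 (Col5a3) to −0.14 (Col14a1). For Col18a1 the steps were −0.69 and 0.13, so its earlier step was the larger in size. Over all genes, the difference was called positive in 6.99% and negative in 5.45%.

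**Figure D3:**
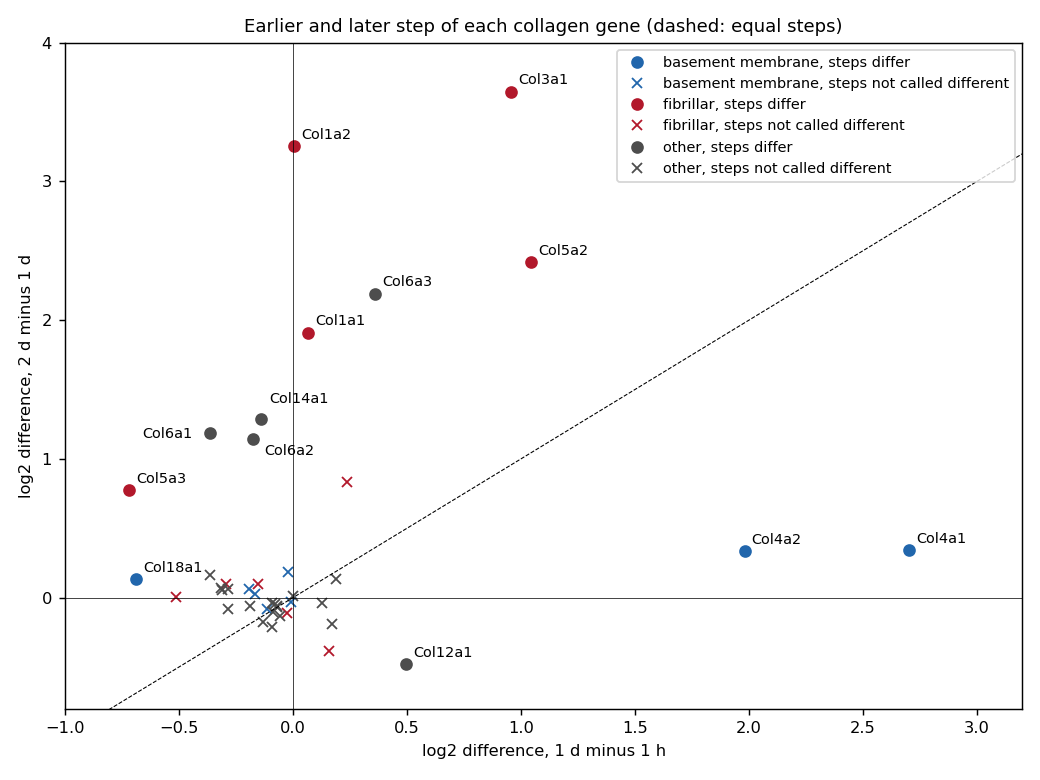
Log2 difference from 1 h to 1 d (horizontal axis) against that from 1 d to 2 d (vertical axis) for each of the 42 collagen genes, means of 5 arrays a group. Both axes share the 1 d arrays. Red is fibrillar, blue basement membrane and grey other collagens, filled circles are genes whose 2 steps differed at an adjusted p under 0.05, crosses the others. Col4a1 and Col4a2 lie at the far right below the dashed line of equal steps, and Col1a2, Col3a1, Col5a2, Col6a3 and Col1a1 above it.

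Between 2 d and 16 d, 11 collagens fell and 1, Col18a1, rose, all without overlap. The background, with or without overlap, was 12.7% lower and 8.54% higher. The 11 were Col1a1, Col1a2, Col3a1, Col4a1, Col4a2, Col5a1, Col5a2, Col6a1, Col6a2, Col6a3 and Col14a1, and this comparison shares its 2 d arrays with that of 2 d and 1 h. Col5a2 fell by 3.12 ± 0.25 (adjusted p = 3.55e-09), Col3a1 fell by 3.07 ± 0.39 (adjusted p = 2.97e-06) and Col4a1 fell by 2.31 ± 0.27 (adjusted p = 9.06e-07). Col3a1 was still 2.89-fold above 1 h at 16 d (1.53 ± 0.39, adjusted p = 0.0303), with 1 overlapping array on each side.

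The 16 d call of Col3a1 was lost with the mean of its probe sets and without 16 d replicate 1, 2, 3 or 5 or 1 h replicate 1, 2, 3 or 4, with an adjusted p up to 0.101. Over all 21 alternatives the difference ranged from 1.01 to 1.78. The lowest 16 d array, at 7.10, and the highest 1 h array, at 7.38, are the arrays that overlap. Col4a1 and Col4a2 were at 0.74 (adjusted p = 0.193) and 0.49 (adjusted p = 0.408) from 1 h at 16 d and were not called.

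Set against control, the 18 collagens on all arrays showed 4 fibrillar chains higher at 2 d and lower again at 4 d than at 2 d, with no further change called among the 18 after 6 d. At 1 h none of the 18 was called higher or lower by limma (background 0.335% and 0.301%), and at an unadjusted p under 0.05 there was 1 higher (Col19a1) and 0 lower. The 18 differences between 1 h and control ran from −0.09 (Col7a1) to 0.20 (Col19a1). At 2 d, 4 were higher, all fibrillar (Col1a2, Col5a2, Col5a1 and Col1a1), and 2 were lower, Col18a1 and Col7a1 (background 19.9% and 12.7%). Col1a1, Col1a2 and Col5a1 are represented here by another probe set than on the complete arrays, so their levels differ from those above.

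Col1a2 read 3.93, 4.27, 4.74, 4.21 and 4.03 in control, 8.32, 8.89, 8.08, 8.39 and 8.77 at 2 d and 6.57, 6.17, 5.33, 5.63 and 5.74 at 4 d. It read 4.78, 4.84, 5.18, 4.62 and 5.08 at 6 d, 4.55, 5.96, 6.27, 5.18 and 4.88 at 8 d and 4.47, 4.45, 4.77, 4.96 and 4.47 at 16 d. At 2 d and 4 d every array exceeded every control array. At 8 d replicates 2 and 3 stood highest, while replicate 1 was within the control range. Its differences from control were 4.25 ± 0.26 at 2 d (19.1-fold, adjusted p = 4.85e-17), 1.65 ± 0.26 at 4 d (adjusted p = 7.17e-06), 0.66 ± 0.26 at 6 d (adjusted p = 0.117) and 1.13 ± 0.26 at 8 d (adjusted p = 0.00281).

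At 16 d Col1a2 differed from control by 0.39 ± 0.26 (adjusted p = 0.559). The fall from 2 d to 4 d was 2.60 ± 0.26 (adjusted p = 2.78e-10) and from 4 d to 6 d 0.98 ± 0.26 (adjusted p = 0.0245). That fall was the 1 change called among the 18 from 4 d to 6 d (background 1.56% lower and 0.82% higher). From 6 d to 8 d and from 8 d to 16 d, 0 of 18 collagens and 0% of all genes were called by limma, with 0 and 2 collagens at an unadjusted p under 0.05.

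Col5a2 read 4.40, 5.00, 5.50, 4.86 and 5.12 in control, 5.69, 6.10, 5.33, 7.17 and 5.88 at 1 d and 8.23, 8.71, 7.99, 8.40 and 8.95 at 2 d. It read 7.37, 6.28, 5.96, 6.37 and 6.30 at 4 d, and the 6 d, 8 d and 16 d arrays lay at 5.51 to 5.81, 5.11 to 6.44 and 5.24 to 5.51. The 1 d arrays overlapped control on 1 array, and the 2 d and 4 d arrays did not. It was higher by 1.06 ± 0.25 at 1 d (adjusted p = 0.000762), 3.48 ± 0.25 at 2 d (adjusted p = 3.88e-15) and 1.48 ± 0.25 at 4 d (adjusted p = 1.53e-05).

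Col5a1 read 4.62, 4.72, 4.86, 4.68 and 4.13 in control, 7.10, 7.48, 6.99, 7.00 and 7.64 at 2 d, 5.65, 5.28, 5.26, 5.44 and 5.34 at 4 d and 5.07, 5.18, 5.13, 4.94 and 5.22 at 6 d. It was the only one of the 18 called at each of 1 d, 2 d, 4 d, 6 d and 8 d, by 0.63 ± 0.16, 2.64 ± 0.16, 0.79 ± 0.16, 0.50 ± 0.16 and 0.62 ± 0.16 (adjusted p = 0.00212, 4.63e-17, 0.000298, 0.0388 and 0.00946). The 6 d call was lost without 6 d replicate 1, 2, 3 or 5 or control replicate 1, 4 or 5, and the 8 d call without 8 d replicate 3 or control replicate 5 or with the 2 groups fitted alone. The other Col5a1 probe set on all arrays was called at 2 d only, at 0.47, with 0.23 at 1 d, 0.29 at 4 d, 0.19 at 6 d and 0.14 at 8 d (adjusted p = 0.00618, 0.203, 0.149, 0.481 and 0.66). The 1 d call was lost when arrays were centred on ribosomal protein genes (adjusted p = 0.058). On the probe set standing for Col5a1, the lowest arrays of 1 d and 8 d (4.77 and 4.86) did not exceed the highest control array (4.86).

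Col1a1 read 4.31, 4.46, 5.19, 4.36 and 4.40 in control and 5.86, 6.08, 6.30, 6.06 and 6.65 at 2 d. It rose by 1.64 ± 0.21 (adjusted p = 3.93e-08) and stood at 0.47 ± 0.21 at 4 d, not called (adjusted p = 0.141). At 4 d, 3 of 18 were higher and 0 lower by limma (background 9.99% and 6.54%), and at an unadjusted p under 0.05 the counts were 4 and 0. Between neighbouring times, Col5a1 and Col5a2 were higher at 1 d than at 12 h (background 3.23% higher and 1.86% lower). From 1 d to 2 d, Col1a1, Col1a2, Col5a1, Col5a2 and Col5a3 were higher (background 10.5% and 3.66%). From 2 d to 4 d, Col1a1, Col1a2, Col5a1 and Col5a2 fell and Col18a1 rose (background 13.5% lower and 5.77% higher).

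Col5a3 was lower early and higher late. It read 5.79, 6.43, 5.96, 5.74 and 5.85 in control, 5.40, 5.47, 4.98, 5.55 and 4.99 at 12 h and 6.80, 6.35, 6.31, 6.46 and 6.60 at 6 d. The 12 h arrays all lay below control, whereas the highest control array lay above 2 arrays of 6 d. The differences were −0.68 ± 0.18 at 12 h (adjusted p = 0.00462), −0.74 ± 0.18 at 1 d (adjusted p = 0.00153) and 0.55 ± 0.18 at 6 d (adjusted p = 0.0483), and the 6 d call was lost under 11 of 21 alternatives, among them leaving out 6 d replicate 1, 2, 4 or 5 or control replicate 1, 3, 4 or 5.

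At 6 d and at 8 d, 2 of 18 were higher and 0 lower by limma (background 5.89% and 2.64% at 6 d, 5.19% and 2.81% at 8 d), and at an unadjusted p under 0.05 the counts were 5 and 0 at 6 d and 4 and 1 at 8 d. At 16 d none was called by limma (background 3.31% and 3.35%), with 1 higher and 0 lower at an unadjusted p under 0.05.

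Col13a1, a transmembrane collagen, rose at 6 h. It read 5.83, 6.28, 6.14, 6.20 and 6.56 in control, 7.09, 7.09, 6.75 and 7.43 on the 4 arrays of 6 h and 6.48, 7.10, 6.46, 7.07 and 6.84 at 12 h. All 6 h arrays lay above control, and at 12 h 2 arrays did not. It was the only collagen of 18 called at 6 h, by 0.89 ± 0.20 (adjusted p = 0.00292), where 3.78% of all genes were higher and 1.89% lower. At 12 h it was higher by 0.59 ± 0.19 (adjusted p = 0.02), a call lost without 12 h replicate 2 or 4 or control replicate 1. It was likewise the only one called between 1 h and 6 h (background 3.33% higher and 0.92% lower). At 12 h the count was 1 higher and 2 lower (background 11.5% and 12.2%).

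Col18a1 read 10.65, 10.64, 10.33, 10.76 and 10.81 in control, and the 12 h, 1 d and 2 d values are those given above. It fell against control by 0.37 ± 0.11 at 12 h (adjusted p = 0.012), 0.57 ± 0.11 at 1 d (adjusted p = 0.000117) and 0.43 ± 0.11 at 2 d (adjusted p = 0.00248), the 12 h call being lost with the 2 groups fitted alone. Between 6 h and 12 h it was the 1 collagen called, and lower (background 4.87% lower and 4.4% higher). The 6 d arrays, at 10.76 to 11.03, were 0.28 ± 0.11 from control and not called (adjusted p = 0.133).

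At 1 d, 2 of 18 were higher and 4 lower than control (background 16.2% and 13.4%). Col10a1, the collagen of growth plate cartilage, read 5.23, 5.11, 5.43, 5.22 and 5.04 in control and 4.89, 4.93, 5.04, 5.00 and 4.82 at 1 d, a fall of 0.27 ± 0.10 (adjusted p = 0.048). Col7a1, the anchoring fibril collagen of skin, was lower by 0.27 ± 0.11 at 1 d (adjusted p = 0.0471) and 0.33 ± 0.11 at 2 d (adjusted p = 0.0142), with overlap at both times. The 1 d calls of Col10a1 and Col7a1 were lost under 11 and 12 of 21 alternatives. These included leaving out the 3 narrow-spread arrays, 1 d replicate 1, 2, 4 or 5 (for Col7a1 also 3) or control replicate 1, 3 or 4. The 2 d call of Col7a1 was lost without 2 d replicate 5 or control replicate 3 and with the 2 groups fitted alone. Centred on ribosomal protein genes, 1 collagen was higher and 9 lower at 1 d, and 4 higher and 9 lower at 2 d. The shares of all genes called with this centring were not counted.

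**Figure D4:**
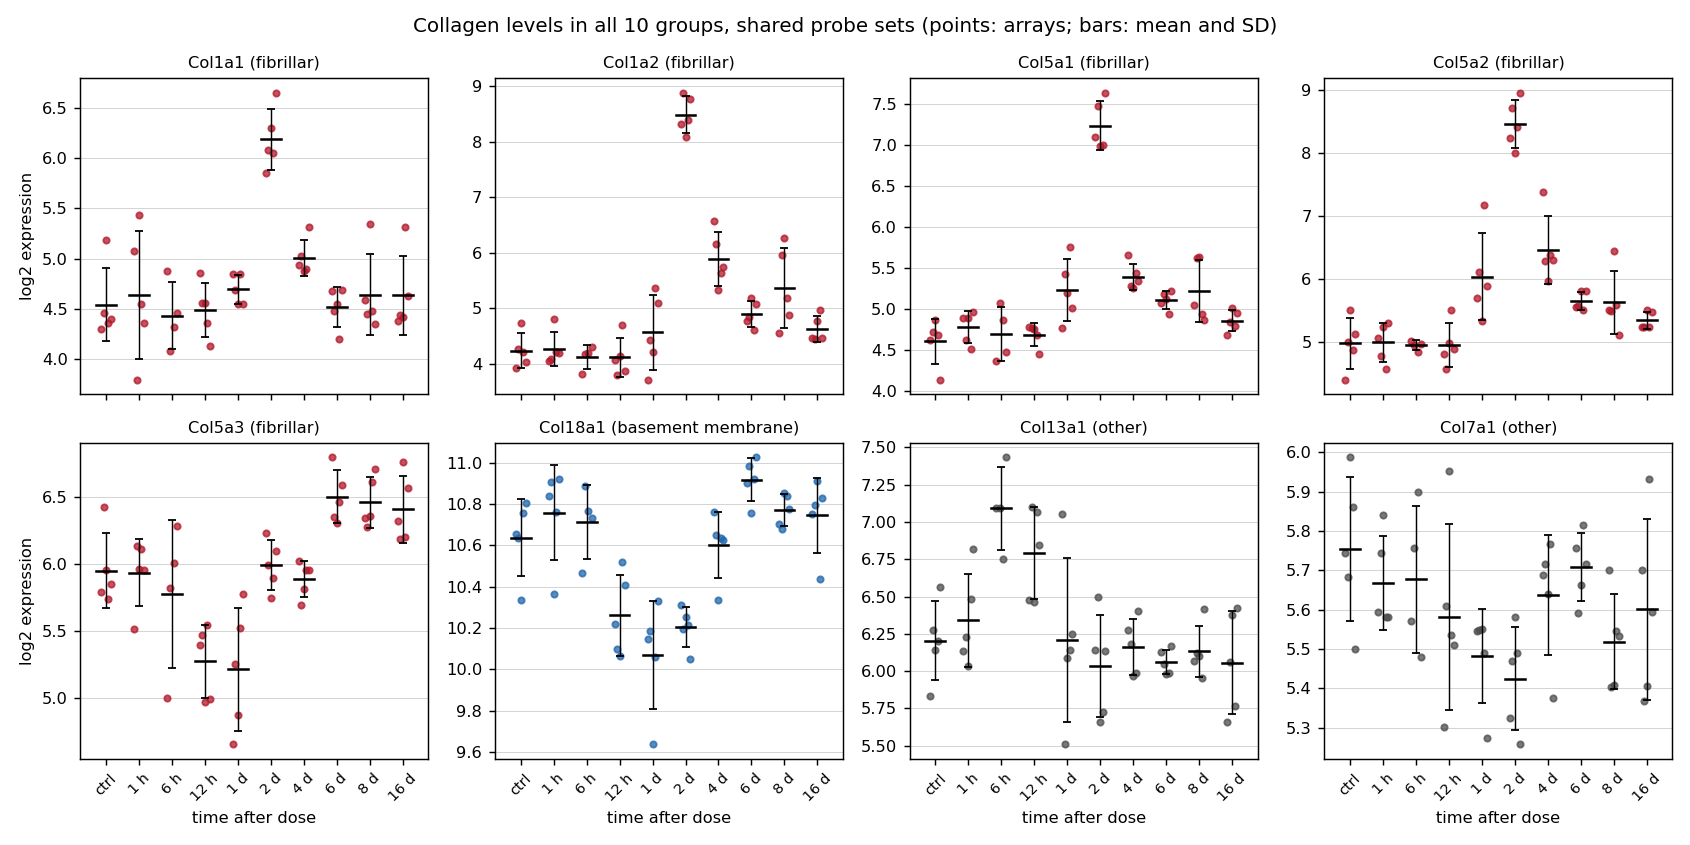
Log2 expression (vertical axis) of 8 collagen genes on every array of control and the 9 times (horizontal axis), on the probe sets present on all arrays. Points are arrays and bars the mean and SD of 5 arrays, or 4 at 6 h. Col1a1, Col1a2, Col5a1 and Col5a2 peak at 2 d, Col13a1 at 6 h, and Col5a3 and Col18a1 dip at 12 h and 1 d. Col18a1 is still low at 2 d.

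Probe sets of the same collagen did not always move together, which bears on the levels of members named above. Of the 42 genes, 27 have several probe sets, up to 4. In a fit over all probe sets, 20 of 82 were higher and 3 lower at 2 d than at 1 h (background 10.9% and 12.1%). At least 1 higher probe set was found in 14 genes. The share of all genes with at least 1 higher probe set was not counted. At 12 h 4 were higher and 7 lower (background 6.3% and 7.4%), at 1 d 7 and 6 (8.8% and 9.15%) and at 16 d 1 and 0 (0.902% and 0.796%). For Col12a1, 1 of its 4 probe sets rose by 1.76 at 1 d (adjusted p = 3.66e-05) and 1.44 at 2 d (adjusted p = 0.000275), while the probe set that stands for the gene gave 0.50 and 0.02. Yet another of its probe sets was lower at 12 h (−0.35, adjusted p = 0.0251).

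For Col22a1, another probe set was higher at 12 h (0.37, adjusted p = 0.0333) where the probe set standing for the gene was lower. Col22a1 was the only member with probe sets called in both directions at 1 time. Col4a5 and Col8a1 each had a dim probe set that was higher at 2 d (0.77 and 0.75), while the gene was not called. Of the genes called at 2 d, Col1a2 had 1 of 3 probe sets without a change by the test (−0.02), at a level of 2.73, and another with a larger rise (4.22).

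Col5a1 ranged over its probe sets from 0.19 (not called) to 2.46. Col14a1 had 2 probe sets that were not called (0.57 and 0.02), and Col25a1 had 1 (−0.11). The other probe set of Col6a2, marked for cross-hybridisation, was not called at 2 d (0.31) and was lower at 12 h (−0.44) and 1 d (−0.41). Both probe sets of Col1a1, Col3a1, Col5a2, Col4a1 and Col18a1 were called in the same direction at 2 d. At 1 d the second probe set of Col5a2 was not called (0.15). The second probe set of Col5a3 was called at neither 12 h nor 1 d (−0.26 and −0.22), and that of Col3a1 was not called at 16 d (0.50).

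**Figure D5:**
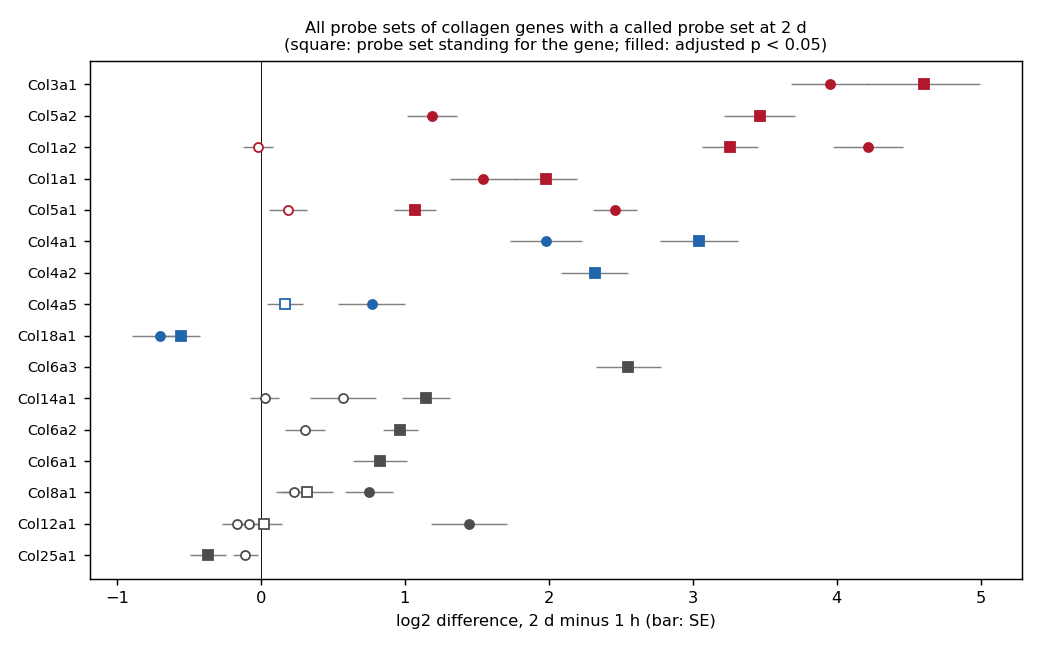
Log2 difference between 2 d and 1 h (horizontal axis, bars are the SE of limma's fit, 5 arrays a group) of every probe set of the collagen genes with a called probe set. Red is fibrillar, blue basement membrane and grey other collagens, squares stand for the gene, circles are its other probe sets, and filled symbols had an adjusted p under 0.05. The probe sets of Col1a2, Col5a1 and Col12a1 lie far apart, and those of Col3a1 and Col1a1 close together.

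Genes that fold, modify and secrete collagen also differed at 2 d. Of 24 measured processing genes, 13 were higher and 1 lower than at 1 h (background 14.8% and 13.3%), with a median of 0.60 beside −0.08 over all genes. At 12 h these counts were 1 and 3 (background 8.29% and 10.3%), at 1 d 6 and 2 (11.6% and 11.7%), and at 16 d 2 and 2 (1.46% and 1.32%). The same shares are the background of the receptor and partner counts against 1 h below. Serpinh1 (HSP47), the collagen chaperone of the endoplasmic reticulum, went from 5.71 ± 0.28 (SD, n = 5) at 1 h to 8.84 ± 0.27 at 2 d and rose by 3.13 ± 0.21 (8.75-fold, adjusted p = 2.25e-10), on a probe set marked for cross-hybridisation whose unmarked partner rose by 4.01.

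Pcolce, which enhances cleavage of the procollagen C-propeptide, rose by 1.48 ± 0.16 (adjusted p = 1.51e-07), and its relative Pcolce2 by 0.94 ± 0.23 (adjusted p = 0.0036). Crtap, part of the prolyl 3-hydroxylase complex, rose by 1.43 ± 0.18 (adjusted p = 1.75e-06). Plod2, a lysyl hydroxylase, rose by 1.30 ± 0.30 (adjusted p = 0.00246), and its second probe set was not called (0.46). Mia3 (TANGO1), which loads procollagen into export carriers, was the 1 lower gene (−0.68 ± 0.12, adjusted p = 0.000236), with 2 of its 4 probe sets not called.

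Of 9 measured collagen receptors, 3 were higher and 0 lower at 2 d by limma (background 14.8% and 13.3%). Counts at an unadjusted p under 0.05 were the same, and the median was −0.02. The 3 were Lair1, an inhibitory receptor of leukocytes (1.44 ± 0.21, adjusted p = 1.3e-05), and the integrin chains Itga1 (0.95 ± 0.19, adjusted p = 0.000617) and Itgb1 (0.46 ± 0.13, adjusted p = 0.0126). All 3 probe sets of Lair1 were higher, while 1 of 2 of Itga1 and 4 of 6 of Itgb1 were not called. At 12 h the receptor counts were 0 higher and 1 lower, at 1 d 2 and 1, and at 16 d 0 and 0 (at an unadjusted p under 0.05, 1 and 2 at 12 h and 0 and 0 at 16 d).

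Of 20 measured matrix partners of collagen, 11 were higher and 0 lower at 2 d by limma (background 14.8% and 13.3%). At an unadjusted p under 0.05 the counts were 11 and 1, and the median was 0.80. Nid1, which bridges laminin and type IV collagen, rose by 3.23 ± 0.36 (adjusted p = 3.3e-07), and Sparc, a collagen-binding glycoprotein, by 2.90 ± 0.21 (adjusted p = 7.73e-10). The matricellular genes Postn (2.34 ± 0.22, adjusted p = 2.72e-08), Tnc (2.25 ± 0.24, adjusted p = 1.72e-07) and Thbs1 (2.22 ± 0.57, adjusted p = 0.00508) followed. Nid1, Sparc, Tnc and Thbs1 each had 1 probe set that was not called. At 12 h 5 partners were higher, at 1 d 7 and at 16 d 0, and none was lower (at an unadjusted p under 0.05, 6, 9 and 2 were higher and 0, 1 and 0 lower). Against control, 8 of 12 measured partners were higher and 1 lower at 2 d (background 19.9% and 12.7%), and 7 were higher at 4 d (9.99%), 4 at 6 d (5.89%), 5 at 8 d (5.19%) and 1 at 16 d (3.31%). Of 10 measured processing genes, 5 were higher at 2 d.

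Markers of cells that can make collagen also differed from 1 h, some at the times of the collagen rises and some before them, and their part in the collagen result was not tested. The shares of all genes given above for each contrast are the background of the counts at the adjusted threshold here too (14.8% higher and 13.3% lower at 2 d against 1 h). Of 7 myofibroblast markers, 3 were higher at 12 h, 5 at 1 d, 6 at 2 d (all but Cnn1) and 0 at 16 d by limma, with the same counts at an unadjusted p under 0.05. Their mean on an array was 4.95 to 5.22 at 1 h, 5.18 to 6.29 at 12 h, 6.20 to 7.14 at 1 d, 7.07 to 7.73 at 2 d and 5.16 to 5.42 at 16 d. The 1 d arrays were thus all above 1 h in the mean of these markers. At that time Col1a2 differed from 1 h by 0.01 and Col1a1 by 0.07, neither called. Col5a2 differed by 1.04, which was called, and Col3a1 by 0.96, which was not. Of 9 stellate cell markers, 1 was higher at 12 h and at 1 d and 4 at 2 d, with array means of 6.26 to 6.87 at 1 h and 7.08 to 7.43 at 2 d.

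The portal fibroblast and mesothelium markers did not separate the groups: 1 of 7 was higher at 2 d, and array means were 4.94 to 5.23 at 1 h and 5.03 to 5.18 at 2 d. Endothelium markers counted 3 of 9 higher at 2 d (array means 6.46 to 7.20 at 1 h and 6.96 to 7.57 at 2 d), and 2 higher and 2 lower at 12 h, when Col4a1 and Col4a2 were already higher. Macrophage markers counted 3 of 6 higher at 2 d, with array means of 7.47 to 7.97 at 1 h and 8.48 to 8.87 at 2 d. Hepatocyte markers counted 1 of 5 lower at 2 d (Tat). None of 5 cholangiocyte, 2 pancreas and 3 skeletal muscle markers was called at 2 d by limma, and at an unadjusted p under 0.05 these were 2, 0 and 1. At other times, 1 cholangiocyte marker and 1 skeletal muscle marker were higher at 12 h and 1 d than at 1 h. The pancreas marker Cela1, an elastase, was lower at 12 h (−0.92) and 1 d (−0.77) and higher at 16 d (1.25 ± 0.22, adjusted p = 0.00103). The other of the 2 pancreas markers was called at none of these times, and the median of both was −0.38, −0.36 and 0.66. Against control, Cela1 was the 1 pancreas marker measured. It was higher there at 6 d, 8 d and 16 d, 2.67-fold, 2.86-fold and 2.91-fold (adjusted p = 1.17e-05, 2.86e-06 and 2.68e-06). At these times Col1a2, Col5a1 or Col5a3 (6 d and 8 d) and Col3a1 (16 d against 1 h) were called. Of the smooth muscle markers, 2 of 3 were higher at 2 d. The stellate and smooth muscle lists share Des, and the myofibroblast and processing lists share Lox.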

How the data were processed

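RNA of whole mouse liver was measured on 49 Affymetrix Mouse Genome 430 2.0 arrays. The deposited values are log2 expression per probe set, made by the authors with RMA, per the labels, and oligo 1.52.0 is named in the submitters' processing notes. RMA corrects background and normalizes arrays, so no depth can be given, and precision is limited by how many arrays a group has. Of the arrays, 25 held 45101 probe sets and 24 held 8137 or 8138. The other probe sets of those 24 were not analysed here.

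Probe sets with a single gene symbol were kept, and a gene was represented by its probe set of highest mean in the fitted arrays, giving 18194 genes on the 25 complete arrays and 5976 on all 49. Linear models over all groups of a table were fitted in R 4.3.3 using limma 3.58.1 and its empirical Bayes moderation, with Benjamini-Hochberg adjustment over all genes of a contrast and a threshold of 0.05. Nothing was filtered or imputed. The fitting steps were tested on simulated data. The members, gene lists and tests were chosen with earlier results of these data known. No label says that arrays of a group came from separate mice, so p-values measure the spread between these arrays, which may be technical.

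Values on every array are given for collagen genes called in a contrast with 1 h or control without overlap of the arrays, at most 10 in each direction, and for 10 collagens in any case. From the processing, receptor and partner lists, at most 5 called genes in each direction are named at the time with most called collagens. Promoters come from RefSeq on GRCm38.p6 and were searched for motifs on both strands. Alternatives covered probe set choice, normalization, weights, filters, the fit and each array left out in turn.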

Additional observations from a re-analysis of the deposited data

Results flagged for a closer look

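In 14 of 145 groups of 4 or 5 arrays tested, 1 array of a collagen gene stood apart from the rest, where chance flags about 1 in 20 groups. The measure is the gap to the nearest other array over the range of the group, with a critical value of 0.71 for 5 arrays and 0.829 for 4. Of the 14, 8 lie on the arrays of narrower spread. On 16 d replicate 4 these are Col1a1 at 6.23 beside 5.24 (ratio 0.802), its second probe set at 5.32 beside 4.63 (0.737), Col25a1 at 7.55 beside 6.99 (0.812), Col3a1 at 7.10 beside 8.22 (0.772) and Col4a2 at 6.56 beside 7.35 (0.758). On 1 h replicate 3 they are Col15a1 at 5.05 beside 4.38 (0.71) and Col1a2, on its probe set of all arrays, at 4.80 beside 4.21 (0.777). On control replicate 3 it is Col1a1, again on the probe set of all arrays, at 5.19 beside 4.46 (0.825).

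The other 6 lie on 6 arrays. Col22a1 stood apart on 1 h replicate 5 at 4.48 beside 4.69 (0.809) and on 1 d replicate 5 at 4.14 beside 4.32 (0.779). At 12 h, Col25a1 stood apart on replicate 3 at 7.06 beside 6.89 (0.763) and Col3a1 on replicate 2 at 4.79 beside 6.08 (0.742). Col1a1 on the probe set of all arrays stood apart on 8 d replicate 3 at 5.34 beside 4.59 (0.765), and Col5a3 on 1 h replicate 1 at 5.52 beside 5.96 (0.714).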

How the results depend on the processing

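Of 286 values of the 26 counts under other settings, 261 lay within 1.5 times the reported count. Of 1066 values for 51 named differences, 970 kept their direction and their side of the threshold, 96 were no longer past it and 0 reversed. The count of 11 higher collagens at 2 d against 1 h stayed at 11 without each array in turn. With ribosomal centring, lower counts were 18 (12 h), 27 (1 d) and 24 (2 d) against 1 h and 9 at both 1 d and 2 d against control, where 1 was higher at 1 d. The shares of all genes called with this centring were not counted. With array weights, 4 were lower at 2 d and 4 higher at 16 d against 1 h. Against control, weights gave 2 lower at 1 d, 4 higher at 6 d and at 8 d and 1 higher at 16 d. With the mean of probe sets, 0 were higher at 16 d against 1 h, where 5 had an unadjusted limma p under 0.05 on the chosen probe sets. Without probe sets marked for cross-hybridisation, 1 was lower at 12 h and at 2 d against control. With the compared groups alone, 1, 2 and 1 were lower at 12 h, 1 d and 2 d against control, and 4 and 1 higher at 6 d and 8 d. Moderation with trend and robust settings, and leaving out the 3 narrow-spread arrays, each gave 2 lower at 1 d against control. Quantile normalization gave 4 lower at 2 d and 1 higher at 6 d, and the fit over all probe sets 1 higher at 6 d.

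Leaving out each array in turn gave 2 to 4 lower at 12 h, 3 to 5 lower and 4 to 5 higher at 1 d, 1 to 4 lower at 2 d and 0 to 1 higher at 16 d against 1 h. Against control it gave 0 to 1 higher at 12 h, 2 to 4 lower at 1 d, 1 to 3 lower and 4 to 5 higher at 2 d, 3 to 4 higher at 4 d, 0 to 2 at 6 d and 1 to 3 at 8 d. Not every pair of same-numbered arrays deviated together, so the numbers were not taken to pair arrays. Of same-numbered pairs, 27 of 50 and 83 of 216 correlated over 0.1. Their mean correlation was 0.0741 and 0.0632, beside −0.0108 and −0.0128 for other pairs, and 9 of 25 and 19 of 49 arrays correlated best with their own number, a hint from the data, not the design. With the replicate number as a block, higher and lower counts against 1 h were 2 and 5 at 12 h, 4 and 6 at 1 d, 11 and 3 at 2 d and 1 and 0 at 16 d, and the counts against control did not change. The cause of these changes was not tested. Low signal limits 14 of the 42 members, whose mean lay under the lower quartile of all genes.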
